A study of Mus musculus with 12 samples.

Results

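The genes described here are 34 genes of the motile cilium and of ependymal cells, followed in the septum of 6 lactating and 6 virgin mice. They were chosen by name for their known place in the cilium or ependyma, with earlier results of these data known. The array measures transcript clusters, each a set of probes along 1 transcribed stretch of the genome, and a gene was taken to be the cluster that carried its symbol alone and had the highest mean over the 12 arrays. All 34 genes were found, among the 19938 genes of the array that could be named in this way. The array holds 35556 clusters, and 104 of them belong to these genes, 1 each for 27 genes and several each for 7. Both groups came from 1 outbred-derived line (hsd:ICR stock) that had been bred over generations for high maternal aggression, so other strains are not covered. No genetic change and no drug is named for either group. The lactating mice had been housed with a male and were taken on postpartum days 6 to 8. The virgin mice had been housed with other females, were of the same age of about 70 days, and were in estrous, diestrous I or diestrous II, with the stage of each mouse not given. The septum was punched from frozen sections, with 1 array per mouse and no pooling, and the paper describes the whole septum where the deposited protocol names its lateral part.

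Ependymal cells line the ventricles of the brain, and the septum forms a wall of the lateral ventricles. Each mature ependymal cell carries a tuft of motile cilia that moves cerebrospinal fluid. Inside such a cilium, motors called axonemal dyneins slide a ring of doublet microtubules against each other, and radial spokes pass signals to them from a central pair of microtubules. The transcription factors Foxj1 and the RFX family switch on many of the genes for these parts, and RFX factors bind a DNA element called the X-box. A punch of septum holds many cell types besides ependyma, and in such bulk tissue fewer ependymal cells and less RNA per ependymal cell cannot be told apart.

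RefSeq windows of 300 bases, from 250 before to 50 after each transcript start (GRCm38.p6), were at hand for 30 of the 34 genes, in 35 entries. Windows of Foxj1, Rsph1, Rsph4a and Dnah3 were not analysed here. The letters GTTGCC, the half-site shared by X-boxes, stood on either strand in 14 of the 35 windows (40%), against 12.5% of all 32851 RefSeq windows. A longer X-box-like match, GTTGCC followed by 1 to 3 bases and then by GNNAC, stood in 9 of the 35 windows (25.7%), from 8 genes, and in 1.88% of all windows. A forkhead-like match, TGTTTGTTT, stood in 1 of the 35 windows (2.86%), that of Odf3b, against 1.7% of all windows. GTTGCC followed directly by ATGG stood in 0 of the 35 windows and in 0.563% of all. The letters of these matches were settled after looking at the windows, so the shares set side by side are not a test. The matches describe sequence, not binding. The 8 genes with the longer match are shown because they are the members whose start regions share a feature that the choice by name did not use. Each is printed 5′ to 3′ on the strand of its gene, with the match in capitals, which reads from its other end where the half-site lies on the opposite strand (Hydin, Tekt2 and Tekt4). Spag16 has a further match on the opposite strand that is not marked. Its last bases open the printed stretch in lower case.
Dynlrb2, chr8:116504940-116504999, plus strand: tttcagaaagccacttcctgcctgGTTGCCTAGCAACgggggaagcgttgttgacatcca
Hydin, chr8:110266948-110266977, plus strand: actctgcgGTTGCTGTGGCAACagatggta
Iqca, chr1:90153500-90153559, minus strand: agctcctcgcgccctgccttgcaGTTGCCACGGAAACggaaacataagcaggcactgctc
Ropn1l, chr15:31453690-31453749, minus strand: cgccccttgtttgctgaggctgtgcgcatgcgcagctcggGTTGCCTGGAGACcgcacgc
Spag16, chr1:69826859-69826888, plus strand: ggcaacgcGTTGCCGTAGTAACtgcggacg
Tekt1, chr11:72361876-72361905, minus strand: tccgtccgGTTGCCATAGAGACcgcagttt
Tekt2, chr4:126325689-126325748, minus strand: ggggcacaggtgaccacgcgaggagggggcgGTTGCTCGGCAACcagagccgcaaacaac
Tekt4, chr17:25471582-25471611, plus strand: tatacaatGTTCCTTAGGCAACcaggaacc

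The comparison of lactating with virgin mice asks whether the septum of mothers differs in the expression of these genes. The differences were small. The array of lactating mouse 4 stood apart in markers of neighbouring tissue, with a median deviation from the mean of the 12 mice of 0.508 for meningeal markers (at most 0.123 in any other mouse) and −0.513 for striatal markers (−0.179 or above in the others), on the log2 scale of the comparison. For each cluster, 16 was added to the intensity, the log2 was taken, and limma compared the groups over all 35556 clusters, so that every difference below is lactating minus virgin on this log2 scale. A gene is called higher or lower at an unadjusted limma p under 0.05. Of the 34 genes, 0 were called higher and 3 were called lower (8.82%), namely Spag16, Dnah3 and Meig1. Among all clusters 3.26% were called higher and 4.69% lower, and among the 19938 genes 3.86% and 4.83%. No cluster of the array passed an adjusted p under 0.05 in limma, and the lowest adjusted p among the 34 genes was 0.619. The difference was negative for 28 of the 34 genes and positive for 6, where 52.1% of all genes were negative. The median difference of the 34 genes was −0.057, against −0.0043 over all genes and −0.023 over the 10801 clusters with a mean intensity of 200 to 600, a range that holds 28 of the 34. Without virgin mouse 5, which was the highest of the 12 mice for 21 of these genes, 21 of the 34 differences were negative, their median was −0.028, and 1 gene, Spag16, was called lower. Without lactating mouse 4 the median was −0.047, and again Spag16 alone was called lower (−0.19), with Dnah3 at −0.092 and Meig1 at −0.14. On linear intensities, 5 of the 34 genes passed lower (Dnah10 and Vwa3b in addition), beside 3.58% of all clusters.

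**Figure D1:**
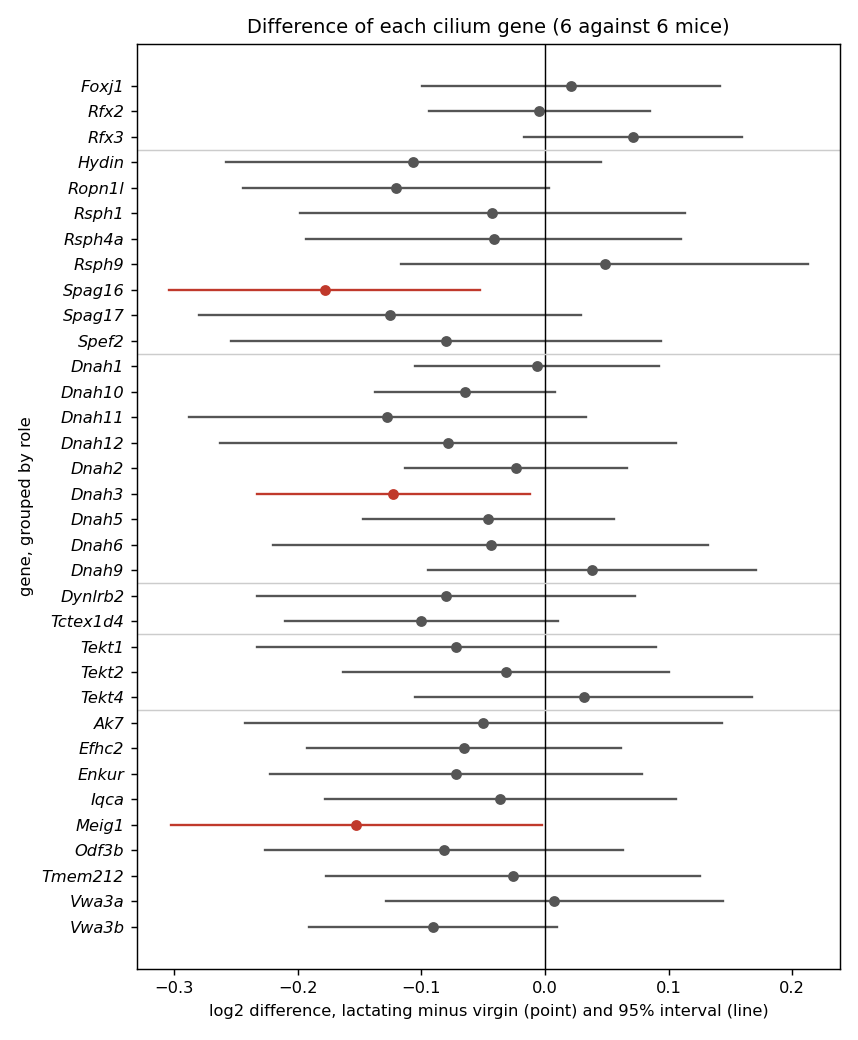
Difference between 6 lactating and 6 virgin mice for each of the 34 genes, ordered by role, on the log2(intensity + 16) scale (horizontal axis); points are the limma estimates, lines their 95% intervals, and red marks the 3 genes at an unadjusted p under 0.05. Points lie left of 0 for 28 genes, and the intervals of all but the 3 red genes include 0.

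The transcription factors gave no call. Foxj1, the regulator that commits cells to motile cilia, ranged from 374 through a median of 405 to 463 in lactating mice and from 368 through 402 to 438 in virgin mice. The groups overlapped over nearly their whole range, and the difference was 0.021 ± 0.056 (SE; limma p = 0.710, two-sided exact permutation test, p = 0.710, from the 924 ways to split 12 mice evenly). Rfx3, an RFX factor needed for ciliary gene expression, ran from 1045 through 1087 to 1138 in lactating mice and from 937 through 1051 to 1077 in virgin mice. In 4 of the 6 lactating mice it was above every virgin mouse. Its difference of 0.071 ± 0.041 was the largest positive one of the 34 genes (limma p = 0.106, exact permutation p = 0.0476). Rfx2, a close relative of Rfx3, differed by −0.0045.

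Radial spoke and central apparatus genes gave the largest of the 34 differences. Spag16, a protein of the central apparatus, ran from 141 through a median of 154 to 178 in lactating mice and from 165 through 177 to 204 in virgin mice. In 5 of the 6 lactating mice it was below every virgin mouse. The difference was −0.18 ± 0.058 (SE; limma p = 0.00921, exact permutation p = 0.013), and without virgin mouse 5 it was −0.14 and was still called. After quantile normalization it was −0.14 and after cyclic loess −0.13, and neither of these passed in limma. Spag16 lay below the array medians of 320 to 339 in every mouse, so the alternative with only brighter clusters did not include it. Ropn1l, a protein of the radial spoke, ran from 224 through 236 to 261 in lactating mice and from 229 through 264 to 289 in virgin mice. The groups overlapped, with 2 lactating mice below every virgin mouse, and the difference was −0.12 ± 0.057 (limma p = 0.0549, exact permutation p = 0.0693). Of the other members, Spag17 and Spef2, which belong to the central apparatus, differed by −0.13 and −0.08, and Hydin, which builds one of its projections, by −0.11. The radial spoke head genes Rsph1, Rsph4a and Rsph9 differed by −0.043, −0.042 and 0.048. None of these passed, and 7 of the 8 differences in the group were negative.

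The 9 axonemal dynein heavy chains, the motor subunits that bend the cilium, gave 1 call. Dnah3, an inner arm chain, ran from 973 through a median of 1094 to 1152 in lactating mice and from 1119 through 1159 to 1306 in virgin mice. In 4 of the 6 lactating mice it lay below every virgin mouse. The difference was −0.12 ± 0.051 (SE; limma p = 0.0318, exact permutation p = 0.0195). It was −0.094 without virgin mouse 5, and −0.074 when the mean over all 33 clusters of the gene was used, and neither of these passed in limma. Dnah10, also an inner arm chain, ran from 330 through 332 to 342 in lactating mice and from 334 through 349 to 366 in virgin mice, and again 4 of 6 lactating mice were below every virgin mouse. Its difference of −0.065 ± 0.034 did not pass in limma (p = 0.0765), while the exact permutation test gave p = 0.0173. Of the outer arm chains, Dnah5 differed by −0.046, Dnah9 by 0.038 and Dnah11 by −0.13. The inner arm chains Dnah1, Dnah2, Dnah6 and Dnah12 differed by −0.0065, −0.023, −0.044 and −0.078. None of these 7 passed.

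Of the light chains, the small subunits of dynein motors, Tctex1d4 ran from 223 through 241 to 264 in lactating mice and from 241 through 262 to 279 in virgin mice. The groups overlapped, with 3 lactating mice below every virgin mouse (difference −0.10 ± 0.051, limma p = 0.0720, exact permutation p = 0.0714). Dynlrb2 ran from 223 through 245 to 298 against 233 through 268 to 301, and its difference was −0.08 ± 0.071 (limma p = 0.278, exact permutation p = 0.294). The tektins are filament proteins that run along the doublet microtubules. Tekt1 ran from 316 through 355 to 391 in lactating mice and from 320 through 394 to 418 in virgin mice, with wide overlap and a difference of −0.072 ± 0.075 (limma p = 0.354, exact permutation p = 0.381). Tekt2 and Tekt4 differed by −0.032 and 0.031.

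Among the other cilium-associated proteins, Meig1, known for its part in sperm formation and expressed in ciliated cells, was called lower. It ran from 753 through 797 to 874 in lactating mice and from 752 through 915 to 1038 in virgin mice. The lowest mouse of all was a virgin, so no lactating mouse lay below the virgin range. The difference was −0.15 ± 0.069 (SE; limma p = 0.0466, exact permutation p = 0.0714) and −0.11 without virgin mouse 5, where it did not pass in limma. The adenylate kinase Ak7 differed by −0.05, the EF-hand protein Efhc2 by −0.065, and Enkur, a calmodulin-binding protein, by −0.072. Iqca, Odf3b and the membrane protein Tmem212 differed by −0.036, −0.081 and −0.026, and Vwa3a by 0.0076. None of these 7 passed.

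Vwa3b, a protein with a von Willebrand factor A domain, is spread over 8 clusters, each a separate set of probes whose levels are not compared with one another. The brightest, 10345552, ran from 1785 through 1890 to 2016 in lactating mice and from 1844 through 2025 to 2219 in virgin mice. The ranges overlapped, with 1 lactating mouse below every virgin mouse, and the difference was −0.091 ± 0.046 (SE; limma p = 0.0719, exact permutation p = 0.0671). Of the 8 clusters, 7 had negative differences, 2 were called lower (25%) and 0 higher, where 4.69% of all clusters were called lower and 3.26% higher. The 8 belong to 1 gene and are not independent. Cluster 10345554 ran from 98.9 through 119 to 124 in lactating mice and from 118 through 132 to 136 in virgin mice (difference −0.15 ± 0.051, limma p = 0.0140, exact permutation p = 0.00866). Cluster 10345550 ran from 93.3 through 97.2 to 120 in lactating mice and from 97.6 through 112 to 124 in virgin mice (difference −0.14 ± 0.063, limma p = 0.0387, exact permutation p = 0.0476). In the latter, 4 lactating mice were below every virgin mouse and lactating mouse 4 stood well above the other 5. Clusters 10345548, 10345558, 10345529 and 10345556 differed by −0.13, −0.11, −0.11 and −0.067, and cluster 10345546 by 0.023. Of these 5, 10345548 ran from 204 through 224 to 242 against 198 through 254 to 270, 10345558 from 158 through 181 to 192 against 178 through 192 to 216, and 10345529 from 186 through 210 to 220 against 209 through 220.1 to 243. Cluster 10345556 ran from 191 through 205 to 225 against 203 through 215 to 238, and 10345546 from 84 through 107 to 117 against 86.8 through 103 to 119. None of these 5 passed, and the groups overlapped in all 8 clusters. After quantile normalization, cyclic loess or subtraction of array medians, 1 of the 8 was called lower. With the mean over all 8 clusters, Vwa3b differed by −0.097 and passed in limma.

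**Figure D2:**
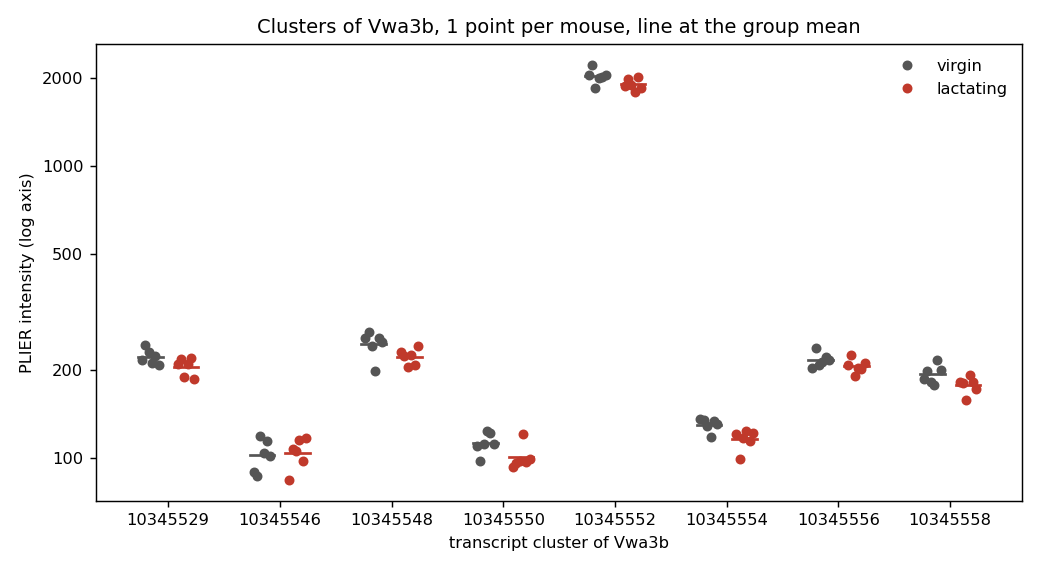
Intensity (vertical log axis, PLIER units) of the 8 Vwa3b clusters in 6 virgin (grey) and 6 lactating (red) mice, 1 point per mouse with a line at the group mean. The lactating mean is below the virgin mean in 7 clusters, and the points of the groups overlap in every one.

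Other members with several clusters could be compared in the same way. The clusters of a gene carry the same symbol and are not taken as independent. Of all clusters of the array, 4.69% were called lower and 3.26% higher. Of the 33 Dnah3 clusters, 30 had negative differences, 5 were called lower (15.2%) and 0 higher. Of the 22 Spef2 clusters, 19 were negative, 1 was called lower (4.55%, near the share of all clusters) and 0 higher. Dnah10 had 5 clusters, all negative, with 1 called lower, and the 3 clusters of Dnah6, 2 of Dnah12 and 4 of Iqca were all negative with none called. Virgin mouse 5 was the highest of the 12 mice in 28 of the 33 Dnah3 clusters and in 18 of the 22 Spef2 clusters, but in 1 of the 8 Vwa3b clusters.

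Most of the 34 genes varied together from mouse to mouse. The deviation of a mouse is the log2 value of a gene minus that gene's mean over the 12 mice, and the median of the 34 deviations was taken for each mouse. In the virgin mice 1 to 6 this median was −0.041, −0.00032, 0.084, 0.013, 0.194 and −0.020. In the lactating mice 1 to 6 it was −0.059, −0.063, −0.038, −0.105, −0.0059 and 0.069. Virgin mouse 5 stood apart above all others, and lactating mouse 4 was the lowest. Virgin mouse 5 was the highest of the 12 mice for 21 of the 34 genes, against 3.45% of all genes. Over all clusters the median deviation of virgin mouse 5 was −0.0058, in values that the authors had already normalized. Whether its array or RNA sample differed from the others was not tested.

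**Figure D3:**
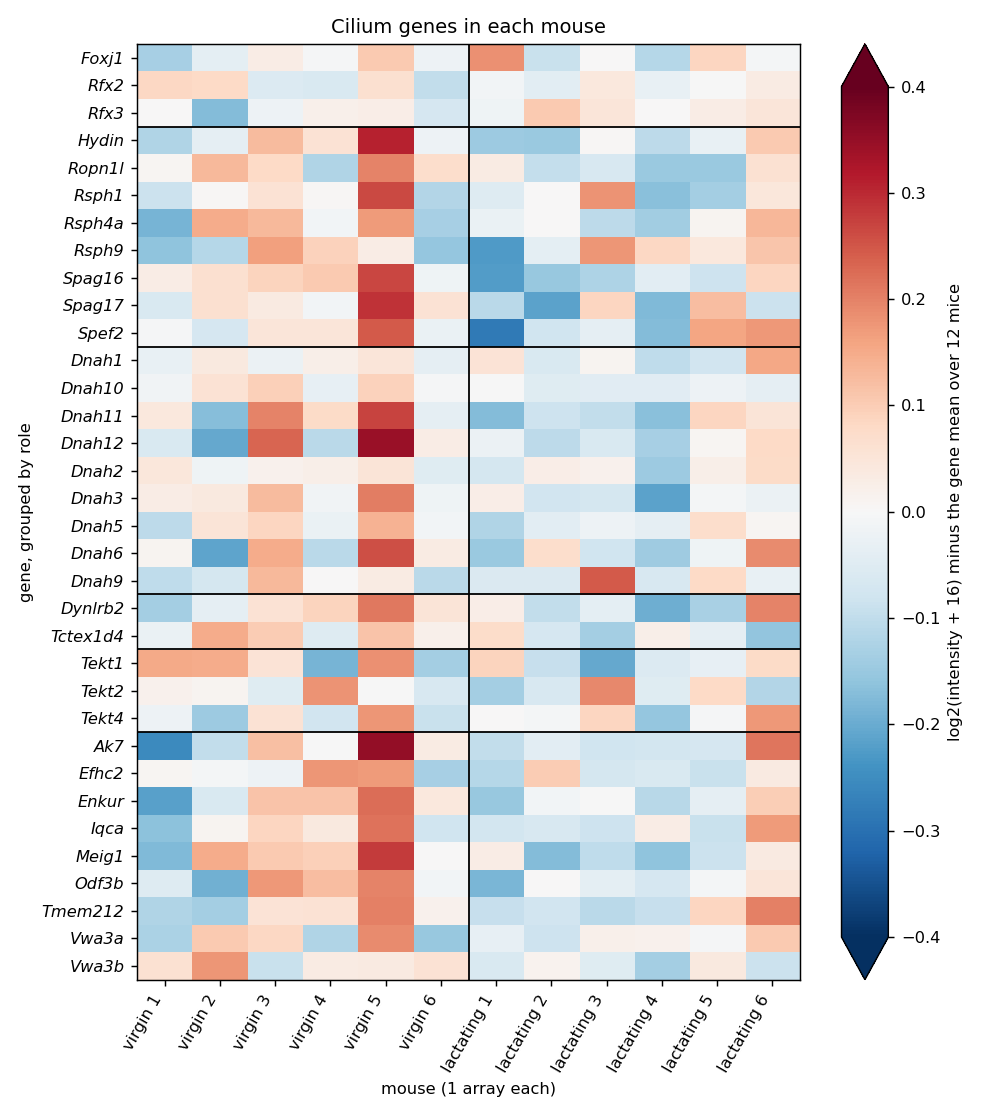
Deviation of each of the 34 genes (rows, grouped by role) from its own mean in each of the 12 mice (columns), on the log2(intensity + 16) scale, red above and blue below the mean. The column of virgin mouse 5 is red for most genes, and the median deviation in that mouse is 0.194.

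To describe this co-variation, each group's mean was subtracted and Pearson correlations were taken over the 12 mice, which share their arrays, so the coefficients carry no test. The median r over the 561 pairs of the 34 genes was 0.415, and 84.8% of the pairs were above 0. Over all genes the median pairwise r was 0.0076. Without virgin mouse 5 the median r of the 561 pairs was 0.256. Each gene was then set against the mean of the other 33. The median r was 0.714 (0.564 without virgin mouse 5), and 24 of the 34 genes (70.6%) had an r above 0.5, against 5.38% of the 19904 other genes. Without virgin mouse 5 these were 22 of 34 and 8.51%. An r above 0.7 was reached by 18 of the 34 genes and by 0.919% of the others.

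**Figure D4:**
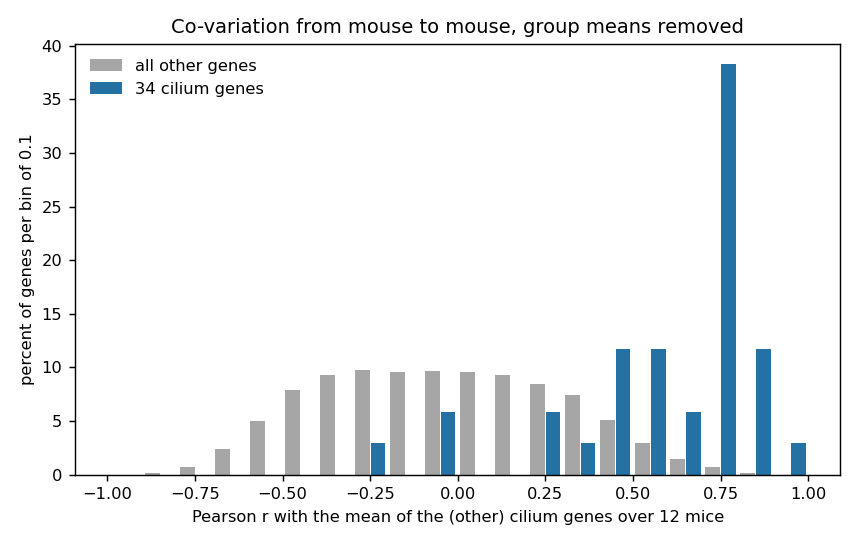
Distribution of the Pearson r of each gene with the mean of the 34 cilium genes, or of the other 33 for a member, over 12 mice with group means removed, as percent of genes per bin of 0.1 (vertical axis). Members (blue) gather between 0.7 and 0.8, where 13 of the 34 lie, while the 19904 other genes (grey) centre near 0.

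The closest follower was Hydin (r = 0.96), then Ak7 (0.87), Tekt4 (0.85), Enkur (0.82) and Tmem212 (0.81). By role, 7 of 8 radial spoke and central apparatus genes, 8 of 9 dynein heavy chains and 7 of 9 other cilium-associated proteins had an r above 0.5. None of the 3 transcription factors did, with 0.48 for Foxj1, 0.36 for Rfx3 and 0.21 for Rfx2. Of the light chains Dynlrb2 followed (0.75) and Tctex1d4 did not (−0.057). Of the tektins, Tekt4 followed the others, while Tekt1 (0.24) and Tekt2 (−0.042) did not. Vwa3b had the lowest r of the 34 (−0.25), and over its 8 clusters r ran from −0.25 to 0.58 with a median of 0.059. Over the 33 Dnah3 clusters the median r was 0.79, and over the 22 Spef2 clusters 0.78. The 3 genes with an r below 0 were thus Vwa3b, Tctex1d4 and Tekt2.

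Outside the 34 genes, those with the highest r with their mean were Spata18 (0.95), Saxo2 (0.93), Spata17 (0.91) and Cabcoco1 (0.90). These 4 were named after their values were seen. Virgin mouse 5 was the highest mouse for all 4. Cabcoco1 was called lower with a difference of −0.24, and the other 3 did not pass.

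Other parts of the motile cilium were read from lists. Of 57 other motile axoneme genes 53 were measured, and 0 were called higher and 4 lower (7.55%), beside 3.86% and 4.83% of all genes. The 4 were Ccdc114, a docking protein of outer dynein arms, Ttc25, Dnah17 and Ccdc153. Ccdc114 ran from 243 through 255 to 265 in lactating mice and from 264 through 274 to 297 in virgin mice (difference −0.11 ± 0.038, limma p = 0.0122, exact permutation p = 0.00649). The other 3 differed by −0.099, −0.094 and −0.13 (exact permutation p = 0.00866, 0.026 and 0.0476). The count of lower genes was 0 after subtraction of array medians and 2 among clusters above the median intensity. It was 1 without lactating mouse 5 and 6 without lactating mouse 6 or virgin mouse 1. The median difference of the 53 was −0.038, and 26 of them (49.1%) had an r above 0.5 with the 34 genes. Of 9 factors that assemble dynein arms in the cytoplasm and 13 genes of the multiciliation program, 0 were called in either direction, with medians of −0.034 and −0.046. In the multiciliation list 1 gene, Myb, had an r above 0.5 (0.87), while the median r of the list was −0.12 and the lowest were Mcidas and Ccdc78 (both −0.54) and Foxn4 (−0.43). These 4 were also named after their values were seen.

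Intraflagellar transport builds cilia of every kind, the primary cilia of neurons included, and its 24 genes were listed apart for that reason. The difference was positive for 21 of 24 (median 0.049), and 2 were called higher and 0 lower, where 52.1% of all genes were negative and 3.86% were called higher. The 24 genes varied together from mouse to mouse (median pairwise r 0.338), so they are not independent. Their median deviation ran from −0.031 to 0.081 in lactating and from −0.093 to 0.035 in virgin mice, and the groups overlapped. Ift140 ran from 579 through 628 to 656 in lactating mice and from 558 through 576 to 607 in virgin mice (difference 0.10 ± 0.038, limma p = 0.0211, exact permutation p = 0.0152). Ift80 ran from 426 through 466 to 500 against 400 through 430 to 460 (difference 0.12 ± 0.051, limma p = 0.0353, exact permutation p = 0.0411). With 1 mouse left out, the count of higher genes ran from 1 to 4. Of 19 genes of the primary cilium and BBSome, 15 differences were positive (median 0.036, median pairwise r 0.309), and 0 were called higher. Bbs2 alone was called lower (5.26% of the 19, beside 4.83% of all genes), by −0.13 (exact permutation p = 0.0455). Whether these genes and the 34 differ from each other in their response was not tested. In these lists 5 of 24 (20.8%) and 3 of 19 (15.8%) genes had an r above 0.5 with the 34 genes.

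A list of 13 genes, drawn up to hold ependymal genes other than cilium parts, gave 1 call. Pltp, a phospholipid transfer protein, was lower by −0.12 (exact permutation p = 0.0498). This was 7.69% of the list, beside 4.83% of all genes called lower. Of the 13 genes, 0 were called higher, and their median difference was −0.0054. Their median deviation in virgin mouse 5 was 0.120, the highest of the 12 mice. An r above 0.5 was found for 6 of the 13, namely Tm4sf1 (0.80), Mia (0.71), Fam183b (0.62), S100b (0.62), Pltp (0.61) and Mlf1 (0.56). By contrast, Vim (−0.086), Prom1 (−0.22), Dynlrb1 (−0.26) and Nnat (−0.33) had an r below 0. Vim reached 4921 in virgin mouse 6, against a virgin median of 2767, and its r without that mouse is not given here. The genes named here with their r were named after their values were seen. Not all genes of this list thus moved with the cilium genes, and how particular each of the 13 is to ependyma was not tested. The 34 are therefore described as cilium genes rather than as a measure of ependymal cells.

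Markers of neighbouring cell types were read beside these values. Among all genes, 3.86% were called higher and 4.83% lower. Of 15 choroid plexus markers 13 were measured, with summed intensities of 3438 to 3868 in lactating and 3395 to 3705 in virgin mice. None had an r above 0.5 with the 34 genes, and the median deviation in virgin mouse 5 was −0.0046. In this list Clic6 was called higher (0.16, exact permutation p = 0.0671) and Slc4a5 lower (−0.12, exact permutation p = 0.0563). Neuroblast and progenitor markers (10 of 11 measured) gave 0 calls and no r above 0.5. Striatal markers (8 of 10) gave 0 calls and no r above 0.5. Their difference was negative for 7 of 8, with a median of −0.14, and their summed intensities were 14468 to 24172 in lactating and 19285 to 24851 in virgin mice. Oligodendrocyte markers (7 of 8) did move with the 34 genes: 6 of the 7 had an r above 0.5 (85.7%), the median r was 0.64, and their median deviation was 0.115 in virgin mouse 5, 0.377 in lactating mouse 6 and −0.235 in lactating mouse 1. Their summed intensities were 15519 to 22777 in lactating and 16932 to 19908 in virgin mice, with 0 calls. Their part in the co-variation of the cilium genes was not tested. Of 9 astrocyte markers, 2 had an r above 0.5, and Fgfr3 and Gjb6 were called higher (0.20 and 0.22, exact permutation p = 0.00216, the smallest that 6 against 6 allow, and 0.0368) and Slc4a4 lower (−0.082, p = 0.026). Meningeal markers (8) gave 0 calls and no r above 0.5, with a median difference of 0.040 and summed intensities of 2730 to 4345 in lactating and 2729 to 3492 in virgin mice. Lactating mouse 4, with the lowest median of the 34 genes, was thus the highest mouse for meningeal and the lowest for striatal markers. Without it the median pairwise r of the 34 genes was 0.403. Markers of septal neurons (11), among them the GABA-synthesizing enzymes Gad1 and Gad2, had summed intensities of 30603 to 33749 in lactating and 30521 to 33710 in virgin mice, and gave 0 calls and no r above 0.5.

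**Figure D5:**
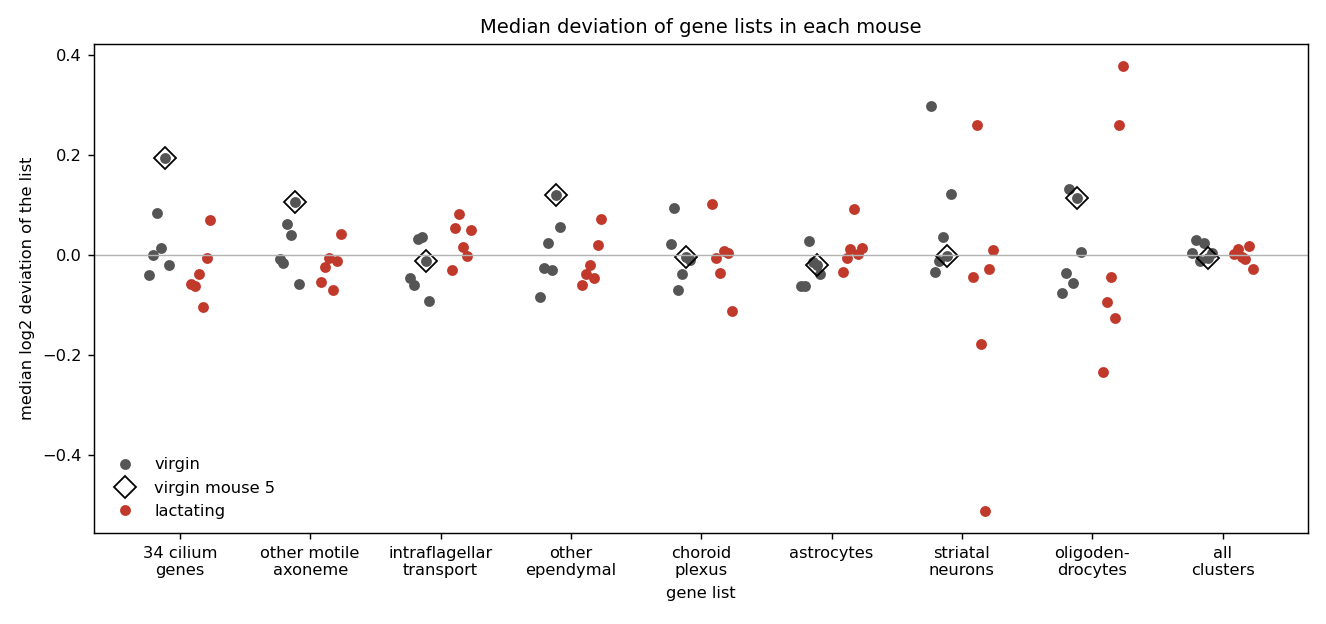
Median log2 deviation (vertical axis) of the 34 cilium genes, of 7 other gene lists and of all clusters in each mouse, 1 point per mouse, virgin in grey, lactating in red, virgin mouse 5 marked by a diamond. Virgin mouse 5 is the highest mouse for the 34 genes, for the other motile axoneme genes and for the other ependymal genes, at 0.194, 0.106 and 0.120, and lies near 0 for all clusters; the oligodendrocyte points of lactating mice spread from −0.235 to 0.377.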

How the data were processed

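RNA from the septum of 6 lactating and 6 virgin mice was hybridised to Affymetrix Mouse Gene 1.0 ST arrays, 1 array per mouse. The authors ran PLIER in Affymetrix Power Tools 1.12.0, correcting for background within bins of probe GC content, to obtain 1 value per transcript cluster, and the deposited values are linear intensities. Here, log2(intensity + 16) was compared with limma 3.58.1 (lmFit and eBayes, two-sided, R 4.3.3) over all 35556 clusters without a filter, with Benjamini-Hochberg adjustment over all of them. No depth or detection value comes with these intensities, so the number of arrays limits the precision. The array medians were 320 to 339, and 496 clusters averaged below the 16 that was added. The test was checked on simulated data. Symbols came from the platform annotation, with 21789 clusters of 1 symbol, 1621 of several and 12146 of none listed. Values per group are the lowest, median and highest intensity, for genes called, Foxj1, 1 or 2 genes per role with the smallest p, and all clusters of Vwa3b. In the other lists, called genes are named, at most 4 per list. Some genes of those lists were not analysed here. The 34 genes and the lists were chosen with earlier results of these data known. Extractions paired 1 lactating with 1 virgin mouse, and which mice were paired is not given in the sources used here. The alternatives were another added value, linear intensities, brighter clusters, clusters with 1 symbol, 3 normalizations between arrays, a variance trend, array weights, the replicate block, the mean over a gene's clusters, and each array left out.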

Additional observations from a re-analysis of the deposited data

Results flagged for a closer look

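Of 84 groups of 6 mice examined (the 34 genes and the 8 Vwa3b clusters, each in both groups, with the brightest Vwa3b cluster counted in both sets), 8 had a highest or lowest mouse separated from the nearest other by a share of the group's whole range above the 95% critical value of Dixon's test for 6 samples. Chance flags about 1 in 20 groups. In virgin mice, mouse 5 was the highest for Spag17 (gap 0.645 of the range) and for Spef2 (0.626), and mouse 4 was the highest for Tekt2 (0.661). In lactating mice, mouse 6 was the highest for Ak7 (0.816). Among the Vwa3b clusters, virgin mouse 4 was the lowest in 10345548 (0.630) and in 10345554 (0.643), lactating mouse 2 was the lowest in 10345554 (0.648), and lactating mouse 4 was the highest in 10345550 (0.779).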

How the results depend on the processing

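The count of genes called higher was 0 in all 11 alternatives and in all 12 fits with a mouse left out. The count called lower was 5 on linear intensities and with array weights, 1 after subtraction of array medians, and 1 to 5 with a mouse left out (1 without lactating mouse 2, 3 or 4 or virgin mouse 5, 5 without lactating mouse 1 or virgin mouse 4). On linear intensities 3.58% of all clusters were called lower. For the other settings of this count the share of all clusters is not given here. The median difference was −0.083 (array weights) to −0.034 (subtraction of array medians) over the alternatives that give one, and −0.079 to −0.028 with a mouse left out. Of the other motile axoneme genes, 2 were called lower among clusters above the median intensity, 0 after subtraction of array medians, and 1 to 6 with a mouse left out. Of the Vwa3b clusters, 1 was called lower after quantile normalization, subtraction of array medians or cyclic loess, and 1 to 4 with a mouse left out, 4 without virgin mouse 4. Intraflagellar transport genes called higher were 1 to 4 with a mouse left out. The median pairwise r of the 34 genes was 0.359 among the 21 of them above the median intensity, 0.470 after quantile normalization, 0.516 after subtraction of array medians, 0.472 after cyclic loess, and 0.256 to 0.457 with a mouse left out. Subtraction of array medians moved the median of all clusters to 0.014. Differences that changed sign were all uncalled: Rfx2 (0.0017 after quantile normalization, 0.019 after subtraction of medians, 0.0046 after cyclic loess), Dnah1 (0.017) and Dnah2 (0.00026) after subtraction of medians, Tekt2 (0.0026) after cyclic loess, and Foxj1 (−0.00077), Tekt4 (−0.017) and Vwa3a (−0.0053) with array weights. With a mouse left out, 13 uncalled genes changed sign in at least 1 fit, with these ranges: Foxj1 −0.014 to 0.046, Rfx2 −0.024 to 0.012, Rsph1 −0.083 to 0.0061, Dnah1 −0.038 to 0.013, Dnah2 −0.041 to 0.0033, Dnah6 −0.0902 to 0.0031, Dnah9 −0.0074 to 0.068, Tekt2 −0.073 to 0.0012, Tekt4 −8.5e-05 to 0.0698, Ak7 −0.11 to 0.016, Tmem212 −0.069 to 0.012, Iqca −0.074 to 0.0038 and Vwa3a −0.022 to 0.046. The cause of these changes was not tested. Mice with the same number correlated above 0.1 in 2 of 6 numbers, at most at 0.25, and whether a number marks an extraction pair is not known. With the replicate block, 3 genes were called lower and 0 higher, beside 2035 lower and 1159 higher among the 35556 clusters. Without the block, 1668 clusters were called lower and 1160 higher. The Vwa3b count could not be had from the alternatives that keep 1 value per gene or drop dim clusters.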
